A study of Mus musculus with 4 samples.

Results

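The membrane-spanning 4-domains, subfamily A (Ms4a) genes were examined in quiescent follicular B cells of mice with and without the transcription factor Ets1. The 8 genes were taken by symbol from the expression tables: Ms4a1, which encodes CD20, and Ms4a4b, Ms4a4c, Ms4a4d, Ms4a6b, Ms4a6c, Ms4a6d and Ms4a7, out of 23305 genes listed per library. RNA sequencing was done on 4 libraries, 2 from WT mice of the C57BL/6 strain and 2 from Ets1-/- mice of mixed C57BL/6 x 129Sv background, so that genotype and strain cannot be told apart. All mice were female, and their ages were not given in the sources used here. The cells were sorted from spleen as live B220+ CD23hi CD21low cells that carried neither CD80 nor switched immunoglobulin isotypes, without stimulation, as 2 biological replicates per genotype. Values are FPKM, in which fragment counts are divided by transcript length and by the mapped total of the library, so that levels can be compared between genes.

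Ms4a proteins cross the membrane 4 times and lie in a gene cluster that has grown by repeated duplication. CD20, the best known of them, is carried by B cells from the pre-B stage until plasma cell differentiation, associates with the B cell receptor at the surface and is the target of rituximab. Other members are known mainly from T cells, mast cells and cells of the myeloid lineage. Ets1 belongs to the ETS family, whose DNA-binding domain contacts a GGAA core. The comparison between the genotypes asks which of these genes had a different transcript level in B cells lacking Ets1.

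Fragment totals were not part of the tables. Steps between low FPKM values gave an estimated depth, in units of 1e6 fragments, of 18.8 and 33 for the WT libraries and 31 and 16.5 for Ets1-/- replicates 1 and 2. The paper gives a higher range of reads per sample. Fragment numbers based on the estimated depth, taken with the full transcript length, are therefore approximate. At the estimated depth Ms4a1 rested on about 20501 to 46050 fragments per library, and Ms4a4d and Ms4a7 on at most about 22. The whole-gene level of Ets1 itself was 231.2 and 274.8 FPKM in WT and 228.6 and 229.8 FPKM in Ets1-/- libraries. Its log2 fold change of -0.14 (adjusted p = 0.86, limma with Benjamini-Hochberg adjustment) was not past the threshold. The mutation targets the third exon and some of the second, which a whole-gene level does not read apart from the rest, so that this level does not check the labels, and libraries are named as labelled. Of the 10 B cell markers examined, none was called changed. Their summed level without Cd74, which alone made up 64% to 70.9% of the sum, was 6500 and 6257 FPKM in WT and 5213 and 6410 FPKM in Ets1-/-. Cr2, which encodes the complement receptor CD21 used in the sort, was at 101.6 and 116 FPKM in WT and 65.11 and 29.95 FPKM in Ets1-/- libraries (log2 fold change -1.28, adjusted p = 0.216, limma with Benjamini-Hochberg adjustment). Genes of other cell types were read as well. Summed FPKM of the 11 neutrophil genes listed was 116 and 94.7 in WT and 2576 and 707 in Ets1-/- replicates 1 and 2, and that of 6 erythroid and platelet genes was 6.55 and 4.31 against 64.8 and 27.9. In sorted bulk samples of this kind, fewer cells of a type and less RNA per cell cannot be told apart.

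The 8 genes spanned more than 3 orders of magnitude in WT cells. Ms4a1 was the highest, at 637.2 and 677.8 FPKM, which put it in places 164 and 170 among the 23305 genes. Ms4a1 alone supplied 74.8% and 76.6% of the FPKM summed over all 16 Ms4a symbols in the tables. Ms4a4c followed with 126.9 and 132.5 FPKM, then Ms4a6b with 33.96 and 32.04 FPKM. Ms4a4b, at 27.61 and 21.82 FPKM, and Ms4a6c, at 24.83 and 19.68 FPKM, overlapped each other. The remaining 3 genes lay below 0.5 FPKM in both WT libraries, Ms4a4d and Ms4a7 overlapping each other and Ms4a6d lowest. In Ets1-/- cells the order of the first 5 was the same, again with overlap of Ms4a4b and Ms4a6c, and Ms4a6d moved from the eighth to the sixth place.

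**Figure D1:**
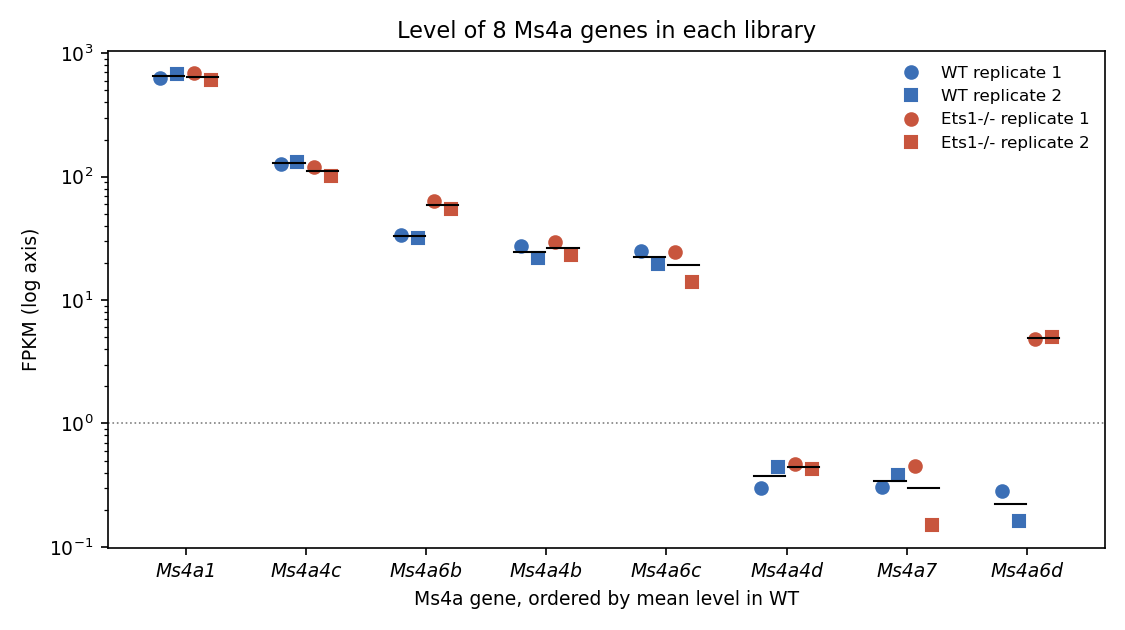
FPKM (log axis) of the 8 Ms4a genes in each WT (blue) and Ets1-/- (red) library, ordered by mean WT level, with circles for replicate 1, squares for replicate 2, black lines for group means and a dotted line at 1 FPKM, the minimum mean for testing. Ms4a6d is the only one of the 8 genes that lies below that line in both WT libraries and above it in both Ets1-/- libraries, at 4.823 and 5.005 FPKM.

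Differences between genotypes were tested by limma on log2(FPKM + 1), fitted across the 10949 genes with a mean of at least 1 FPKM in either genotype. The call required a difference of at least 1 on the log2 scale, in either direction, with a Benjamini-Hochberg adjusted p of at most 0.05. Over all genes tested 186, or 1.7%, were called, and 96, or 0.877%, were called higher in Ets1-/- cells. Of the 8 Ms4a genes, 6 passed the filter on low values, and Ms4a6d passed it only through its level in Ets1-/- cells. Ms4a6d was the 1 gene called, and it was higher in Ets1-/- cells. Ms4a6b and Ms4a6d had an unadjusted p under 0.05, as did 13.3% of all genes tested. For 3 of the 6 genes the genotypes did not overlap, Ms4a4c being lower and Ms4a6b and Ms4a6d higher in Ets1-/- cells, against 41.6% of all genes tested whose genotypes did not overlap. The median log2 fold change of the 6 genes was 0.03, beside -0.02 over all genes tested.

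**Figure D2:**
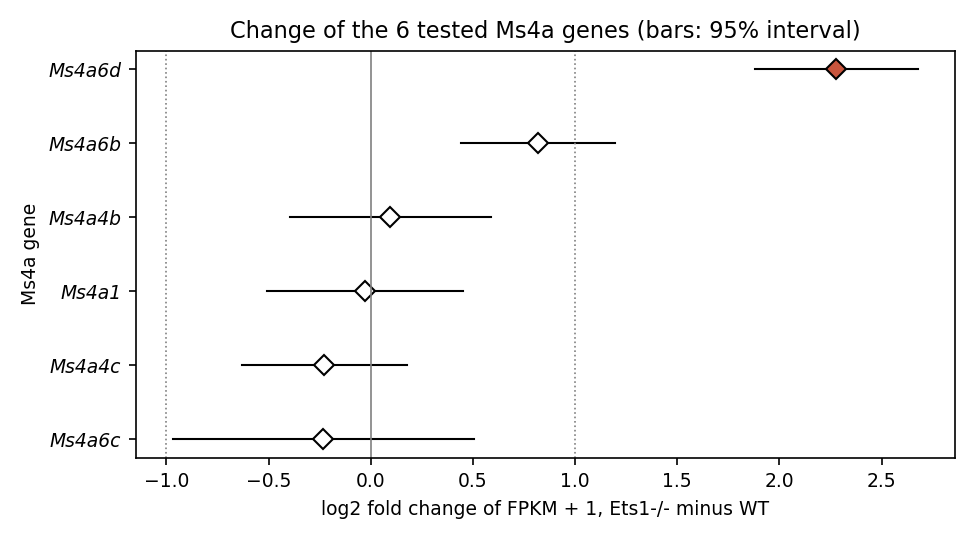
Log2 fold change of FPKM + 1 (Ets1-/- minus WT) of the 6 tested Ms4a genes with its 95% interval from the limma fit (bars) and dotted lines at a 2-fold difference in either direction; the filled diamond is the gene called changed. Ms4a6d lies at 2.28, Ms4a6b at 0.82 with an interval above 0, and the intervals of the other 4 genes include 0.

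Ms4a1 transcript levels were close in the 2 genotypes. CD20 is a marker of the mature B cell state, and Ms4a1 read 637.2 and 677.8 FPKM in WT and 688.6 and 603.5 FPKM in Ets1-/- libraries, giving means of 657.5 ± 28.7 and 646.1 ± 60.2 (SD, n = 2 each). The Ets1-/- libraries lay on either side of the WT pair. The log2 fold change was -0.03 (SE 0.19), and its adjusted p was 0.988 in the limma fit. The 95% interval of that difference ran from a 0.703-fold to a 1.37-fold level in Ets1-/- cells, which leaves room for differences of about that size in either direction. A noncoding gene on the opposite strand, 4930526L06Rik, overlaps Ms4a1 in the GENCODE M1 annotation and stayed at or below 0.138 FPKM in all 4 libraries.

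Surface proteins that act beside CD20 were read for comparison. Of 9 such genes tested, none was called changed, and the median log2 fold change was -0.10. Cd81, a tetraspanin of the B cell surface, was at 124 and 128.9 FPKM in WT and 68.49 and 78.87 FPKM in Ets1-/- libraries. The genotypes did not overlap for Cd81, but its log2 fold change of -0.78 had an adjusted p of 0.0928 in the limma fit and it was not called. Relative to Cd79a, a signalling chain of the B cell receptor, the level of Ms4a1 was 0.331 and 0.33 in WT and 0.489 and 0.368 in Ets1-/- libraries. Both Ets1-/- ratios lay above both WT ratios, and Cd79a itself was lower in both Ets1-/- libraries, with a log2 fold change of -0.39 that was not called (adjusted p = 0.608, limma with Benjamini-Hochberg adjustment).

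The Ms4a4 genes form a trio of close paralogs. Within aligned coding sequence Ms4a4b and Ms4a4c were 91.8% identical, Ms4a4c and Ms4a4d 87.9% and Ms4a4b and Ms4a4d 85.7%, whereas pairs from different subgroups reached at most 69%. Ms4a4c, a gene known to respond to interferon, was at 126.9 and 132.5 FPKM in WT and 119.7 and 102.1 FPKM in Ets1-/- libraries. Both Ets1-/- values lay below both WT values. The log2 fold change of Ms4a4c was -0.23 (SE 0.16, adjusted p = 0.671, limma with Benjamini-Hochberg adjustment), which is not past the threshold. Ms4a4b encodes a protein that associates with the costimulatory receptor GITR in T cells, and it read 27.61 and 21.82 FPKM in WT and 29.58 and 23.39 FPKM in Ets1-/- libraries. The genotypes overlapped for Ms4a4b, with a log2 fold change of 0.10 (SE 0.19) and an adjusted p of 0.925 in the limma fit. Ms4a4d was at 0.298 and 0.446 FPKM in WT and at 0.469 and 0.425 FPKM in Ets1-/- libraries, below the filter and not tested.

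Marker lists of T cells and of the interferon response were read beside the Ms4a4 genes, which are also active in T cells and answer to interferon. Of the 17 T cell genes tested none was called. Of the 18 listed, 6 were lower and 3 higher in both Ets1-/- libraries than in both WT libraries. Over all genes tested, the genotypes did not overlap for 41.6%. The list summed to 332 and 314 FPKM in WT and 369 and 377 FPKM in Ets1-/- libraries, and without Ccr7, which B cells also express, to 200 and 165 against 154 and 194 FPKM. The defining T cell genes Cd3d, Cd3e, Cd3g and Bcl11b were above 0 in every library and summed to 46.0 and 37.9 FPKM in WT and 48.4 and 58.4 FPKM in Ets1-/- libraries, so that these transcripts were read in both genotypes. None of 9 NK cell genes was called by limma, but 4 had an unadjusted p under 0.05, all lower in Ets1-/- cells, beside 13.3% of all genes tested. In both Ets1-/- libraries 5 were below WT, and 1, Eomes, was above, at 1.148 and 1.221 against 0.8289 and 0.9224 FPKM in WT. The rest overlapped, among them Nkg7 at 15.65 and 13.19 FPKM in WT and 15.02 and 18.57 FPKM in Ets1-/- libraries. Ncr1, an activating receptor of NK cells, was at 2.424 and 0.9568 FPKM in WT and 0.0224 and 0.1277 FPKM in Ets1-/- libraries, and Klrk1 at 1.504 and 1.287 against 0.3221 and 0.2307 FPKM. Their list summed to 43.5 and 27.8 FPKM in WT and 21.5 and 30.9 FPKM in Ets1-/- libraries, and without Nkg7 to 27.8 and 14.7 against 6.51 and 12.4 FPKM. The part of T cell or NK cell RNA in the level of Ms4a4b was not tested. Among 21 interferon-stimulated genes tested, 1 was called, and the median log2 fold change was -0.16. The gene called was Oasl2, an oligoadenylate synthetase-like gene, which fell from 4.771 and 3.843 FPKM in WT to 0.144 and 0.1462 FPKM in Ets1-/- libraries (log2 fold change -2.21, adjusted p = 0.00969, limma with Benjamini-Hochberg adjustment).

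The Ms4a6 genes form the other trio and held the largest differences. Coding sequences of Ms4a6b and Ms4a6c were 86.3% identical within the aligned bases, those of Ms4a6b and Ms4a6d 81.8% and those of Ms4a6c and Ms4a6d 79.7%. The start of each coding sequence, bases 1 to 90 of the GENCODE M1 transcript, is shown because it lets the paralogs be told apart. Capitals in the first line mark positions at which either of the other genes differs from Ms4a6b, and capitals in the other lines mark differences from Ms4a6b.
Ms4a6b: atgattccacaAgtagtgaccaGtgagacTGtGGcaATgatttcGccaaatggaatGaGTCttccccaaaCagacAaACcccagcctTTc
Ms4a6c: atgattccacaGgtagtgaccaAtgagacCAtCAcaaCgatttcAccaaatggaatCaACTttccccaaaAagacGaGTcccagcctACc
Ms4a6d: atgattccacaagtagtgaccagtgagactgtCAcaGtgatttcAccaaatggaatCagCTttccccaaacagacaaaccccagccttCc
In this stretch Ms4a6c differed from Ms4a6b at 18 bases and Ms4a6d at 8 bases.

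Ms4a6d, which is known mainly from macrophages, was close to the floor of detection in the WT libraries and higher in both Ets1-/- libraries. It was at 0.2816 and 0.1606 FPKM in WT and at 4.823 and 5.005 FPKM in Ets1-/- libraries, or 0.221 ± 0.0856 and 4.914 ± 0.129 (SD, n = 2 each). Both Ets1-/- values lay far above both WT values, and the Ets1-/- replicates were close to each other. The ratio of the means was 22.2, and the log2 fold change in the fit, where adding 1 to each FPKM shrinks the change of a gene this low, was 2.28 (SE 0.16, adjusted p = 0.00682, limma with Benjamini-Hochberg adjustment). Estimated from depth and transcript length, these levels rest on about 7.5 fragments in each WT library and on about 212 and 117 fragments in Ets1-/- replicates 1 and 2. By fold change Ms4a6d was in place 34 among the 96 genes called higher. In both genotypes it remained well below Ms4a6b, at 0.829% and 0.501% of the Ms4a6b level in WT and 7.59% and 9.16% in Ets1-/- libraries.

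Ms4a6b, expressed in lymphoid and myeloid cells, stood higher in both Ets1-/- libraries but was not called. Its levels were 33.96 and 32.04 FPKM in WT and 63.57 and 54.63 FPKM in Ets1-/- libraries, or 33.0 ± 1.36 and 59.1 ± 6.32 (SD, n = 2 each), a ratio of 1.79. The gap between genotypes exceeded the spread within either of them. The log2 fold change was 0.82 (SE 0.15) with a 95% interval from 0.44 to 1.20, an unadjusted p of 0.0025 and an adjusted p of 0.0792 in the limma fit. A larger log2 fold change was found for 3.64% of all genes tested. In alternative limma fits the adjusted p of Ms4a6b was 0.0406 with robust variance estimation, 0.104 with no filter and 0.132 with the replicate block. It was 0.00944 with crossed pairing of the replicates, a setting added after seeing the data. The log2 fold change of Ms4a6b stayed below 1 in each fit made, so that it was never called. Its share of the summed Ms4a FPKM was 3.99% and 3.62% in WT and 6.80% and 6.79% in Ets1-/- libraries.

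Ms4a6c, the Ms4a gene that precedes Ms4a6b in the cluster, had overlapping levels. It was at 24.83 and 19.68 FPKM in WT and at 24.62 and 14.13 FPKM in Ets1-/- libraries, with a log2 fold change of -0.23 (SE 0.29) and an adjusted p of 0.86 in the limma fit. Ets1-/- replicate 2 was the lowest of the 4 values, and the other Ets1-/- library matched the higher WT library. The Ms4a6b level was 1.37 and 1.63 times that of Ms4a6c in WT and 2.58 and 3.87 times in Ets1-/- libraries.

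Reads shared between paralogs could be counted for either gene, and how the authors' counting treated them was not given in the sources used here. Of all 50-base windows of the annotated Ms4a6d transcripts, 2.69% occurred identically in Ms4a6b or the gene model Gm10212. The corresponding share was 3.44% for Ms4a6b and 6.78% for Ms4a6c, and it was 5.32% for Ms4a4b, 4.96% for Ms4a4c and 0.546% for Ms4a4d. Ms4a1 and Ms4a7 shared none. With windows of 100 bases only Ms4a4b and Ms4a4c still shared sequence, at 1.9% and 1.52%.

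Ms4a7, found in macrophages, was at 0.306 and 0.378 FPKM in WT and at 0.448 and 0.150 FPKM in Ets1-/- libraries. The values overlapped, rested on at most about 22 fragments, and were not tested. Of the other family genes and their relatives, 12 of 16 listed symbols were in the tables, 6 of them at 0 in all 4 libraries. None of the 3 that were tested was called. Ms4a3, a marker of granulocyte and monocyte progenitors, was at 0.1743 and 0.0994 FPKM in WT and at 2.438 and 0.8622 FPKM in Ets1-/- libraries (log2 fold change 1.16, adjusted p = 0.197, limma with Benjamini-Hochberg adjustment). Of the 2 Ets1-/- libraries, replicate 1 was the higher for Ms4a3 and also for the summed neutrophil genes. The related genes Tmem176a and Tmem176b had log2 fold changes of -0.59 and -0.80 with adjusted p-values of 0.227 and 0.301 in the limma fit, and Ms4a2, the beta chain of the high-affinity IgE receptor, stayed below 0.26 FPKM.

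Myeloid markers were read beside Ms4a6d, Ms4a6b and Ms4a3. Of the 13 monocyte and macrophage genes tested out of 18, Emr1, which encodes F4/80, was the 1 called, at 2.346 and 2.632 FPKM in WT and 23.46 and 37.23 FPKM in Ets1-/- libraries (log2 fold change 3.13, adjusted p = 0.00969, limma with Benjamini-Hochberg adjustment). The other defining genes of that list were low in both genotypes. Csf1r, the receptor for macrophage colony-stimulating factor, was at 2.353 and 0.9989 FPKM in WT and 1.863 and 0.8758 FPKM in Ets1-/- libraries, while Fcgr1 stayed at or below 0.165 FPKM and Mertk at or below 0.154 FPKM in all 4 libraries, and no defining gene was at 0. The list of 18 summed to 557 and 505 FPKM in WT and 606 and 577 FPKM in Ets1-/- libraries. Ctss, a cathepsin gene that B cells also express, supplied 69.4% to 90.1% of that sum, and the other 17 genes summed to 92.4 and 50.2 FPKM in WT and 185 and 116 FPKM in Ets1-/- libraries. Besides Emr1, the lysozyme genes Lyz2 and Lyz1 and the Fc receptor genes Fcgr4 and Fcgr1 were higher in both Ets1-/- libraries than in both WT libraries. Of the 18, 1 was lower in both. Lyz2 was at 42.16 and 17.95 FPKM in WT and 102.3 and 45.73 FPKM in Ets1-/- libraries, and the ratios of the means of Lyz2, Lyz1 and Fcgr4 were 2.46, 2.8 and 2.55, none of them called.

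All 11 neutrophil genes were higher in both Ets1-/- libraries than in WT, and 3 of them, the granule protein genes Ngp, Camp and Ltf, were called. These genes differed strongly between the Ets1-/- replicates, Camp for example being at 224.5 and 69.2 FPKM. Ms4a6d was at 4.823 and 5.005 FPKM in the same libraries, a ratio close to 1. When Ets1-/- replicate 1, the library with the highest neutrophil sum, was left out, the log2 fold change of Ms4a6d was 2.30 and that of Ms4a6b was 0.71. The neutrophil sum of Ets1-/- replicate 2, 707 FPKM, was still above the 116 and 94.7 FPKM of WT. This fit therefore does not take neutrophil transcripts out of the comparison. Of the other lists, 1 of 4 dendritic cell genes tested was called, Cd209a. It was at 0.8802 and 0.5855 FPKM in WT and 3.276 and 3.6 FPKM in Ets1-/- libraries. Sums of the dendritic cell list were 7.47 and 5.93 FPKM in WT and 11.3 FPKM in each Ets1-/- library. None of the plasma cell, erythroid and platelet genes tested was called. All 3 erythroid and platelet genes tested had an unadjusted limma p under 0.05, all higher in Ets1-/- cells, beside 13.3% of all genes tested. Of 5 plasma cell genes tested, 2 had an unadjusted limma p under 0.05, both higher in Ets1-/- cells. In both Ets1-/- libraries 2 of these 5 were above WT and 2 below, beside 41.6% of all genes tested whose genotypes did not overlap. No basophil or mast cell gene reached the filter. The part of other cells' RNA in the level of Ms4a6d or Ms4a6b was not tested.

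**Figure D3:**
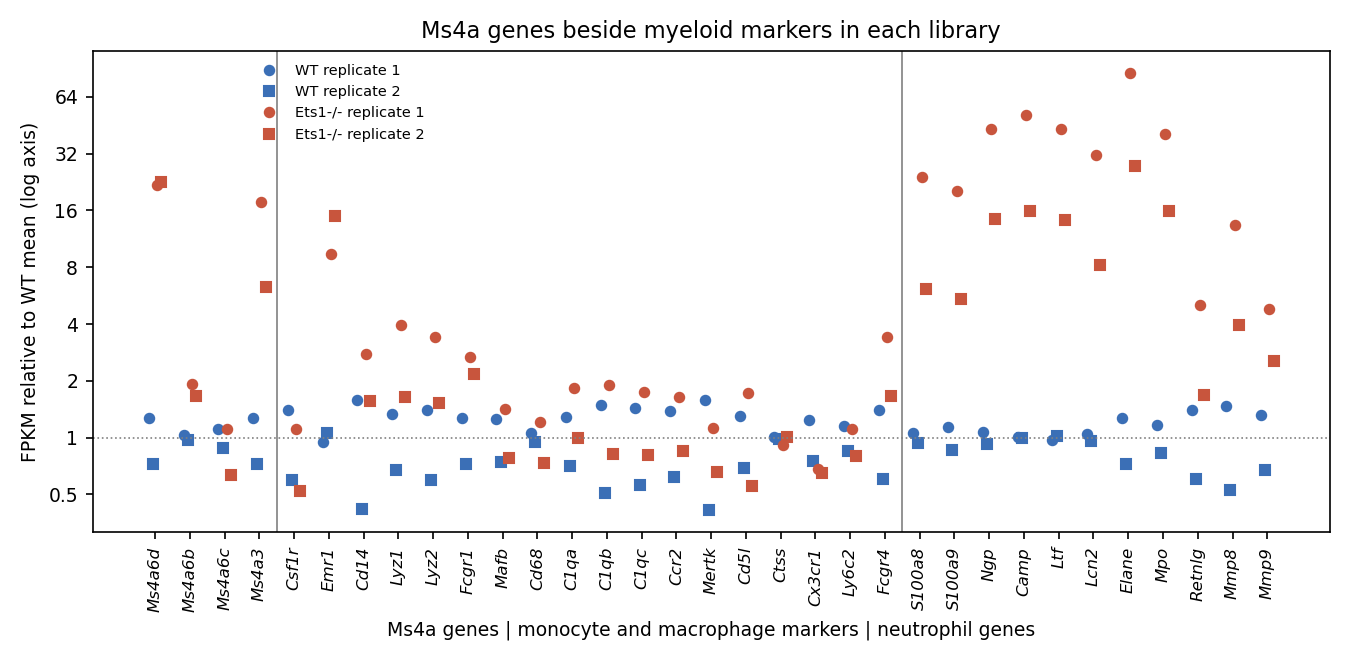
FPKM relative to the WT mean of each gene (log axis) for Ms4a6d, Ms4a6b, Ms4a6c and Ms4a3, the 18 monocyte and macrophage markers and the 11 neutrophil genes, in WT (blue) and Ets1-/- (red) libraries with circles for replicate 1 and squares for replicate 2. The 2 Ets1-/- values of Ms4a6d nearly coincide, whereas for every neutrophil gene Ets1-/- replicate 1 lies above replicate 2.

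Profiles over the 4 libraries were compared with those of all other tested genes by the root mean square difference of centred log2(FPKM + 1) values. Nearest to Ms4a6d were Tubb2b, a beta-tubulin gene, at 0.128, then Gm10653 and Enpp5 at 0.146 and 0.152. All 3 were called higher in Ets1-/- cells. Enpp5 read 0.1882 and 0.1311 FPKM in WT and 3.671 and 3.509 FPKM in Ets1-/- libraries. Nearest to Ms4a6b was Vcl, which encodes the adhesion protein vinculin, at a difference of 0.012, with 5.091 and 4.725 FPKM in WT and 10.38 and 8.829 FPKM in Ets1-/- libraries. Aqp1 and Rabl2 followed at 0.017 and 0.032. For Ms4a1 the nearest genes were Elac1, Rbm28 and Sms, for Ms4a4c they were Nol11, Ccdc117 and Etaa1, for Ms4a4b they were 2210404J11Rik, Tyrobp and A830010M20Rik, and for Ms4a6c they were Ceacam1, Xlr4b and Bod1l, none of which was called. With 4 libraries such a likeness describes these values only.

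In the mm9 genome the 8 genes lie within 354.7 kb of chromosome 19, in a cluster with 17 annotated Ms4a genes. The 2 genes with the lowest p among the 8 are not adjacent: Ms4a6b (chr19:11591002-11605746, plus strand) and Ms4a6d (chr19:11661094-11679339, minus strand) are separated by Ms4a4d (chr19:11611291-11632957, plus strand), which stayed below 0.5 FPKM in all 4 libraries. Ms4a1 (chr19:11324654-11340669, minus strand) lies nearer the other end of the cluster. In the cluster and within 500 kb of either end of it, 44 genes whose symbols do not begin with Ms4a were in the tables. They include family genes under older symbols, which were at 0 in all 4 libraries and not tested. Of the 44 genes, 22 were tested. They were set apart by symbol only, and whether any of them belongs to the family was not examined. Among them is the gene model Gm8369 (chr19:11566528-11587067, plus strand), between Ms4a6c and Ms4a6b. Gm8369 was at 52.8 and 62.94 FPKM in WT and 62.25 and 39.89 FPKM in Ets1-/- libraries. None of the 22 was called by limma, and 4 (Slc15a3, Oosp1, Mrpl16 and Stx3) had an unadjusted p under 0.05, as did 13.3% of all genes tested. Their log2 fold changes ran from -0.59 to 0.93 with a median of -0.02, the highest being Stx3, a syntaxin gene, at 1.257 and 1.236 FPKM in WT and 4.298 and 2.449 FPKM in Ets1-/- libraries (adjusted p = 0.176, limma with Benjamini-Hochberg adjustment).

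**Figure D4:**
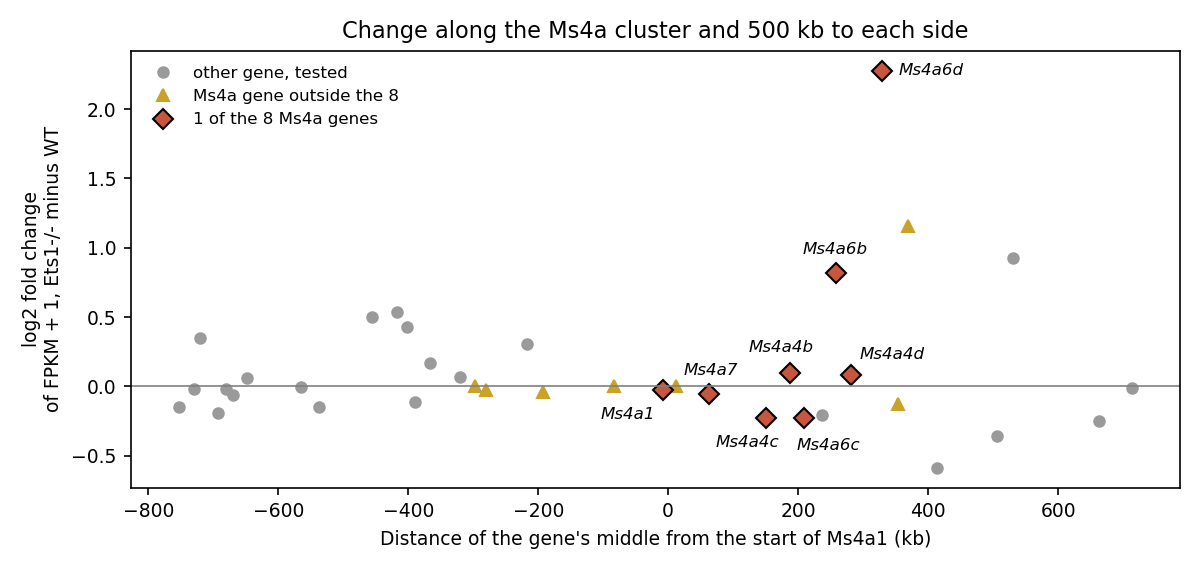
Log2 fold change of FPKM + 1 (Ets1-/- minus WT) against the distance in kb of each gene's middle from the start of Ms4a1. Red diamonds are the 8 Ms4a genes, and yellow triangles are other Ms4a genes, tested or not. Grey circles are tested genes whose symbols do not begin with Ms4a. Ms4a6d at 2.28 stands highest, and Ms4a3 at 1.16 and Ms4a6b at 0.82 lie on the same side of Ms4a1. The grey circles lie between -0.59 and 0.93.

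The promoters of Ms4a6b and Ms4a6c are shown because these paralogs had different ratios between genotypes, and because Ets1 binds GGAA cores. Each window holds 250 bases before and 50 bases after the RefSeq start site (GRCm38.p6) and was found once on mm9 chromosome 19. Capitals mark GGAA, or TTCC where the match is on the opposite strand.
Ms4a6b (GRCm38.p6 chr19:11518309-11518608, plus strand, mm9 chr19:11592799-11593098): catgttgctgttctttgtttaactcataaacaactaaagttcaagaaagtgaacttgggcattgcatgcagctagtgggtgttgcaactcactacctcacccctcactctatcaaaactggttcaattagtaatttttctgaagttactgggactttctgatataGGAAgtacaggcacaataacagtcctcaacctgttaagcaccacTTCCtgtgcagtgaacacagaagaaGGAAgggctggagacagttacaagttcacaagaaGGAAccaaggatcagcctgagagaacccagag
Ms4a6c (GRCm38.p6 chr19:11469118-11469417, plus strand, mm9 chr19:11543608-11543907): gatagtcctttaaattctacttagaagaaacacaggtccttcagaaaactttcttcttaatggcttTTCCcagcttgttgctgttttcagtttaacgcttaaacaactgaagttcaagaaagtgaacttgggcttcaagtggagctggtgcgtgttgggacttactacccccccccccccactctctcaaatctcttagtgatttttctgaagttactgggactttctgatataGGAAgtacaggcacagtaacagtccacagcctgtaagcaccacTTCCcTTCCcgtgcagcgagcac
The Ms4a6b start site lies 2047 bases inside the annotated gene, and that of Ms4a6c lies at the annotated gene start. Each window held 4 GGAA matches on the 2 strands together. The windows were 85.3% identical over 225 aligned bases, and 51.2% over the whole alignment with its gaps. Relative to the start site the matches began at -85, -41, -16 and 19 for Ms4a6b and at -184, -16, 28 and 33 for Ms4a6c. The same surrounding letters hold the match at -85 in Ms4a6b and that at -16 in Ms4a6c. This is also so for -41 in Ms4a6b and 28 in Ms4a6c, so that equal positions do not mark corresponding sites. GGAA is frequent, being present in 96% of the 32851 promoter windows with a median of 3 matches, so that its presence does not set either gene apart. Neither window held GAGGAA, the core preferred by PU.1, on either strand, and 28.3% of all windows did. The longer ETS motif CCGGAA was in neither window and in 14.9% of all, and both longer motifs contain GGAA. The octamer ATTTGCAT and an interferon response motif were also in neither window, and in 1.74% and 3.44% of all windows. No entry was given for Ms4a1 and Ms4a6d. The paper mapped Ets1 binding by ChIP-seq in splenic B cells, which was not examined here. Letter matches alone do not measure binding.

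Transcription factors that are known to act on Ms4a1 or on genes of B cell identity were read last. None of 10 was called, and their log2 fold changes ran from -0.85 for Irf4 to 0.42 for Irf8. Sfpi1, which encodes the ETS factor PU.1, had a log2 fold change of 0.10 and Pax5, which holds B cell identity, of 0.08. Foxo1, at -0.52, was the only gene of that list with an unadjusted p under 0.05 in the limma fit, beside 13.3% of all genes tested.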

How the data were processed

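Expression was measured by RNA sequencing (TruSeq RNA libraries, Illumina) in 2 WT and 2 Ets1-/- libraries. The authors aligned the reads to mm9 with TopHat2 2.0.13, per the labels, and deposited FPKM values per gene symbol from Cuffdiff, 1 table per library. Annotation, strand setting, the handling of multiply mapped reads and any scaling between libraries were not given in the sources used here. Other per-library columns were not used.

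Of 23309 entries, 4 with repeated symbols were left out. In R 4.3.3, limma 3.58.1 (lmFit, then eBayes with trend) was run on log2(FPKM + 1) of 10949 genes whose mean reached 1 FPKM in WT or Ets1-/- cells, with Benjamini-Hochberg adjustment over all of them. The script was tested on simulated data. The p-values measure the spread between 2 samples per genotype, with 2 residual degrees of freedom per gene. This spread was moderated toward the trend over all genes tested, with 3.1 prior degrees of freedom. Since 2 against 2 samples cannot reach 0.05 by permutation, no such test was made. Depth was estimated from FPKM steps of genes with a single transcript; 91.1% to 93.2% of low values lay within 0.25 of a whole fragment.

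Positions and transcripts came from GENCODE M1 (20978 symbols, 90%, matched), promoters from RefSeq (GRCm38.p6). Sequences were compared with Biopython 1.88. Genes named are the 8 members, list genes that were called or are defining markers, called genes near the cluster and the 3 nearest profiles of each tested member. Ms4a3, the Tmem176 genes, Ms4a2, Cd81, Cd79a, Stx3, Gm8369, Camp, Ets1, Oosp1, Mrpl16, Slc15a3, Cr2, Cd74, Ccr7, Ncr1, Klrk1, Nkg7, Eomes, Ctss, Lyz1, Lyz2, Fcgr4 and the transcription factors were named after their values were seen. The members and lists were chosen with earlier results of these data known. Alternatives covered the pseudocount, the filter, scaling, variance estimation, the replicate block and each replicate left out. The value of 1 further gene is not reported here.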

Additional observations from a re-analysis of the deposited data

How the results depend on the processing

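Ms4a6d was called in each alternative that tested it, with log2 fold changes from 2.21 to 3.99 and adjusted p-values from 1.46e-05 to 0.046 (limma); the number of the 8 genes called was 1 throughout except 0 with a mean FPKM of at least 5, where Ms4a6d was no longer tested. Its log2 ratio of means without a pseudocount was 4.47. Ms4a6b was never called, with adjusted p-values from 0.00944 to 0.522. Over all genes, the 186 calls became 75 with no filter, 106 with a mean FPKM of at least 5, 305 with robust variance estimation, 99 to 116 with a replicate left out, and 696 for a ratio of at least 2 without overlap; the cause was not tested. Leaving out 1 replicate reversed directions of genes that were not called, with log2 fold changes from -0.123 to 0.067 for Ms4a1, -0.067 to 0.259 for Ms4a4b and -0.61 to 0.15 for Ms4a6c; the lone library was then assumed to vary like the others. The replicate numbers are shared by the labels only: same-numbered libraries deviated with a correlation of -0.207, so pairing was not established. With the replicate block 266 genes were called, and with the crossed pairing, added after seeing the data, 409; Ms4a6d was called under both, at adjusted p-values of 0.00124 and 1.46e-05. The WT level of Ms4a6d rests on few fragments, which limits the precision of its ratio.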
